A study of Homo sapiens with 4 samples.

Results

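The genes described here encode integrin subunits of 3 kinds: the alpha-v subunit ITGAV with its beta partners ITGB3, ITGB5, ITGB6 and ITGB8, the collagen-binding alpha subunits ITGA1 and ITGA2, and the fibronectin-binding alpha subunits ITGA4 and ITGA5. They are 9 of the 61533 gene identifiers in the count table and were selected by gene symbol, with results of the comparison below already known. For that reason their fold changes and calls are given as a description of these libraries and as support for nothing else. The libraries came from Caki-1, a human cell line established from renal cell carcinoma and given in the labels as wild type, grown in McCoy's 5A medium with serum. One arm was transduced with lentivirus carrying shRNA against TFE3 (shTFE3) and the other with lentivirus carrying a control sequence (shControl), with 2 libraries in each arm and 4 in all. In both arms cells were split into dishes 24 hours after infection, puromycin (1 µg/ml) followed after 12 hours more, and cells were harvested once 3 days of selection had passed, so every library comes from cells that survived infection and puromycin. The labels give neither the number of hairpins nor whether the replicates of an arm were separate infections. If they were not, the errors below measure technical spread only.

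Integrins are cell surface receptors made of an alpha and a beta subunit that join the extracellular matrix to the actin cytoskeleton. An alpha subunit leaves the endoplasmic reticulum only when paired with a beta subunit. ITGAV pairs with each of ITGB3, ITGB5, ITGB6 and ITGB8 and binds matrix proteins that carry the RGD sequence, and the pairs with ITGB6 and ITGB8 are known for activating latent TGF-beta. ITGA1, ITGA2, ITGA4 and ITGA5 pair with ITGB1, which is shared by most matrix receptors. In kidney epithelium integrins anchor cells to the basement membrane. TFE3, of the MiT/TFE family, is a transcription factor that binds E-box sequences such as CACGTG and is best known for lysosomal genes.

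Promoter windows of 300 bases (250 before to 50 after the RefSeq gene start, GRCh38.p14) were found for 8 of the 9 genes, 11 windows in all, since ITGAV has 2 and ITGB5 has 3. ITGB3 was not matched. The windows below are those of ITGB8, which had the lowest level relative to control, of ITGB6, the other partner of ITGAV that activates latent TGF-beta, and of the chromosome 5 neighbours ITGA1 and ITGA2, whose levels went opposite ways. They lie at chr7:20330650-20330949 (plus strand) for ITGB8, chr2:160200223-160200522 (minus strand) for ITGB6, chr5:52787666-52787965 (plus strand) for ITGA1 and chr5:52989102-52989401 (plus strand) for ITGA2. Each is written 5′ to 3′ on the strand of its gene, and capitals mark GGGCGG, the GC box, or its reverse complement CCGCCC.
ITGB8: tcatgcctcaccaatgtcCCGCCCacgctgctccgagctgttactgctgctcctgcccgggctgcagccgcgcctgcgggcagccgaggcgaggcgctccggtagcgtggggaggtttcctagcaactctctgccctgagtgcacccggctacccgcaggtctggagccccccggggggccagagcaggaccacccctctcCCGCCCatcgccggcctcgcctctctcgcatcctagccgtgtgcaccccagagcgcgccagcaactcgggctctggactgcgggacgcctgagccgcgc
ITGB6: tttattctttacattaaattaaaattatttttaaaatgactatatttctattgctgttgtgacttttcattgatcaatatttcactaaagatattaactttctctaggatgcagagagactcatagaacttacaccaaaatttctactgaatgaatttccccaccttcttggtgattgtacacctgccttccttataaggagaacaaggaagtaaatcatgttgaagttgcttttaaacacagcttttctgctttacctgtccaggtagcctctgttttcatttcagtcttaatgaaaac
ITGA1: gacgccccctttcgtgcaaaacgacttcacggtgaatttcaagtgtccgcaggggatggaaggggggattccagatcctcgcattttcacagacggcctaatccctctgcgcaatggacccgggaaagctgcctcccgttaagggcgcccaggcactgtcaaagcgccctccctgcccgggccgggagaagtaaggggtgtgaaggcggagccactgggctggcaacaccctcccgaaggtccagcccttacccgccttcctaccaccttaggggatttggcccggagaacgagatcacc
ITGA2: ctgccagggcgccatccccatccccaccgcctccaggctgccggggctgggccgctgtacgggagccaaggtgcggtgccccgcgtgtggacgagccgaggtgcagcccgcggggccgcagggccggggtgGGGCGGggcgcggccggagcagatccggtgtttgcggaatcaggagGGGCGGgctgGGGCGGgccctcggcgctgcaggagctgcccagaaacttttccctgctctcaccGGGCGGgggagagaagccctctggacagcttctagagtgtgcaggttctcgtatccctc

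The E-box CACGTG, the related CATGTG and the longer TCACGTG, which contains CACGTG, were searched on both strands. None of the 11 windows held any of them. Of all 35116 windows in the RefSeq table, 7.26% held CACGTG, 11.1% held CATGTG, 17.6% held either and 3.71% held TCACGTG. At such shares 11 windows would hold few matches, so their absence is not read as a difference. The GC box GGGCGG, searched on both strands and added after the values of the genes were seen, was in 6 of 11 windows and in 45% of all windows. ITGA2, which was called higher, held 4 copies, while ITGB8 held 2 and the ITGB5 windows held 2, 2 and 3, although both were called lower. ITGA5 held 1, and the windows of ITGA1, ITGA4, ITGB6 and ITGAV held none. TGAGTCA, the AP-1 site, added in the same way, was in 1 window, that of ITGA5, and in 4.95% of all windows. GC content ran from 31.7% in ITGB6, visible above as long runs of a and t, to 75.7% in an ITGB5 window, around a median of 58.7% over all windows. These are matches of letters in short windows, and binding was not measured here.

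The 4 libraries held 17270180 to 17742519 counts, and levels are given as CPM, which are counts relative to library size after scaling by the trimmed mean of M-values. The limit that a count of 0 allows, 3 counts, was 0.167 to 0.176 CPM, for counting error only. TFE3 itself was at 131 and 128 CPM in shControl and at 70.1 and 66.9 CPM in shTFE3, so that its fitted log2 fold change was -0.92 (SE 0.062; adjusted p 5.6e-11 by edgeR), in the direction of the labels. Over all genes, edgeR's quasi-likelihood test called 3709 of 15950 tested genes at an adjusted p under 0.05, which is 23.3%, with 10.3% called higher and 12.9% called lower in shTFE3. The epithelial markers PAX8 and KRT8 were present in every library, PAX8 at 424 to 465 CPM, while PAX2, CA9 and LRP2 had 0 counts throughout. EPCAM, also an epithelial marker, was at only 0.45 to 1.23 CPM, and CUBN was at 3.40 to 5.06 CPM. Neither of these was called. Of the 10 markers of kidney tubule and renal carcinoma, 7 were tested, and KRT18 and CDH2 were called lower. Few markers of other cell types passed the filter, 3 of 10 for leukocytes, 2 of 4 for platelets, 1 of 5 for endothelium and 3 of 6 for fibroblasts, and none of these was called. The leukocyte marker CD14, which was not tested, had 2 counts in each shControl library and 10 and 11 in the shTFE3 libraries. The summed levels of the 4 lists stayed within 2.29 to 3.81, 1.58 to 2.47, 2.93 to 4.12 and 25.1 to 28.9 CPM over the 4 libraries, with CD3E, ITGAL, GP9, PF4, CDH5 and LUM at 0 counts.

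All 9 integrin genes passed the filter on low counts, with mean counts from 231 to 14027. In shTFE3, 7 were called lower (ITGAV, ITGB3, ITGB5, ITGB6, ITGB8, ITGA1 and ITGA4), 1 was called higher (ITGA2) and ITGA5 was not called, beside 23.3% of all tested genes called in either direction. The median log2 fold change of the 9 was -0.43 and that of all tested genes was 0.0015. The CPM ranges of the arms did not overlap for any of the 9, which also held for 60.3% of all tested genes. With no filter on low counts, a fit over 31954 genes, ITGB6 alone of the 9 was called. In bulk RNA, fewer cells that express a gene and less RNA per cell cannot be told apart.

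**Figure D1:**
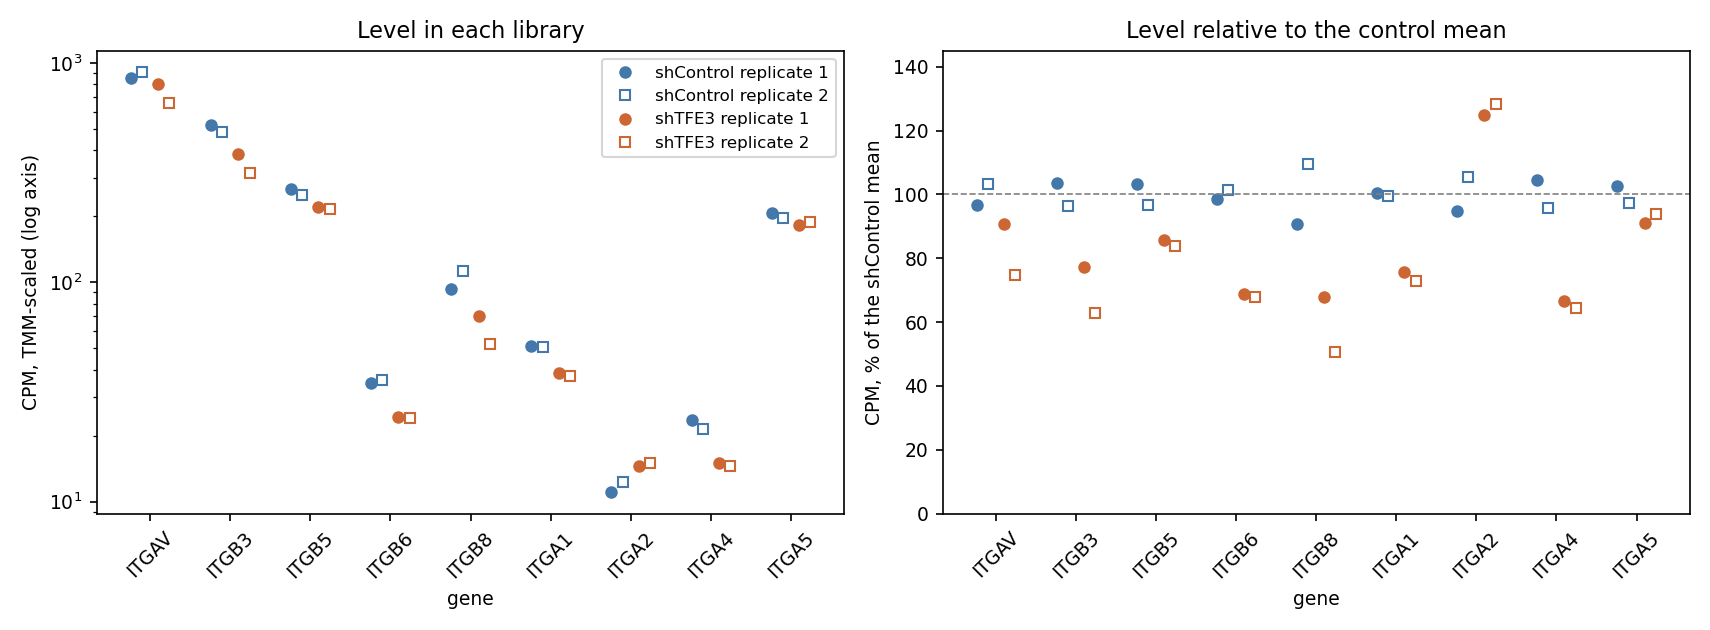
CPM of the 9 integrin genes in each of the 4 libraries on a log axis (left) and as a percentage of the mean of the 2 shControl libraries on a linear axis from 0 (right), with 1 point per library, blue for shControl and orange for shTFE3. ITGB8 has the lowest shTFE3 mean, 59.3% of control, ITGA2 is the 1 gene above control, and shTFE3 replicate 2 lies well below replicate 1 for ITGAV, ITGB3 and ITGB8.

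ITGAV (ENSG00000138448, chromosome 2, 186590065 to 186680901, plus strand, GRCh38), the alpha subunit common to the RGD receptors, had 851 and 911 CPM in shControl and 798 and 659 CPM in shTFE3. The arms did not overlap, but the gap between the nearest libraries was 5.99% of the control mean, while the 2 shTFE3 libraries stood 19.1% of their mean apart. Its mean was 82.7% of control, 881 ± 42.4 against 729 ± 98.2 CPM (SD, n = 2), and its log2 fold change was -0.27 (SE 0.066, 95% interval -0.41 to -0.14). Without shTFE3 replicate 2 the value was -0.14 and ITGAV was no longer called. DESeq2 did not call it either, at a log2 fold change of -0.27.

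ITGB3 (ENSG00000259207, chromosome 17, 47253846 to 47311816, plus strand), which forms the vitronectin receptor with ITGAV, had 519 and 482 CPM in shControl and 386 and 314 CPM in shTFE3. Both shTFE3 libraries were below both controls, with a nearest gap of 19.2% of the control mean, and they differed from each other by 20.5%. Its mean was 69.9% of control, 501 ± 26.2 against 350 ± 50.7 CPM (SD, n = 2), with a log2 fold change of -0.52 (SE 0.069, 95% interval -0.66 to -0.37). With each library left out in turn it ranged from -0.67 to -0.38 and the gene stayed called. ITGB3 shares 2266 exon bases with an annotated read-through locus, ENSG00000259753, which had 0 counts in every library.

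ITGB5 (ENSG00000082781, chromosome 3, 124761948 to 124901418, minus strand), the subunit of the other vitronectin receptor, had 266 and 249 CPM in shControl and 221 and 216 CPM in shTFE3. Its replicates were close, 2.36% apart in shTFE3, and the shift was the smallest of the called beta subunits, 84.7% of control. The means were 258 ± 12.3 and 218 ± 3.64 CPM (SD, n = 2), and the log2 fold change was -0.24 (SE 0.056, 95% interval -0.36 to -0.12). It was no longer called without shControl replicate 1 (-0.19), without shTFE3 replicate 1 (-0.26) or without shTFE3 replicate 2 (-0.22).

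ITGB6 (ENSG00000115221, chromosome 2, 160099666 to 160200313, minus strand) is an epithelial beta subunit whose pair with ITGAV releases active TGF-beta from its latent complex. It had 34.9 and 36.0 CPM in shControl and 24.4 and 24.1 CPM in shTFE3, the tightest shTFE3 replicates of the 9 genes, 1.54% apart. The mean was 68.4% of control, 35.5 ± 0.74 against 24.2 ± 0.26 CPM (SD, n = 2), with a log2 fold change of -0.55 (SE 0.082, 95% interval -0.72 to -0.38). It was the 1 gene of the 8 called that stayed called in every one of the 11 alternative fits, with log2 fold changes from -0.57 to -0.53. The window printed above for ITGB6 had none of the motifs. A transcript on the same strand, ENSG00000285155, shares 966 exon bases with ITGB6 and had 103 and 119 counts in the shControl pair against 81 and 74 in the shTFE3 pair, and its log2 fold change was -0.59 (SE 0.16; adjusted p 0.0101 by edgeR).

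ITGB8 (ENSG00000105855, chromosome 7, 20330702 to 20415754, plus strand), the other TGF-beta activating partner of ITGAV, had 93.4 and 113 CPM in shControl and 70.0 and 52.2 CPM in shTFE3. The arms were separated by 22.7% of the control mean, but the replicates were the most variable of the 9 genes in both arms, 18.7% apart in shControl and still further apart in shTFE3. Its mean was 59.3% of control, 103 ± 13.7 against 61.1 ± 12.5 CPM (SD, n = 2), and its log2 fold change was -0.75 (SE 0.095, 95% interval -0.95 to -0.56). With each library left out in turn it ranged from -0.98 to -0.56, and it was no longer called without shTFE3 replicate 2. An antisense transcript, ENSG00000271133, shares 98 exon bases with ITGB8. It had 29 and 34 counts in the shControl pair against 28 and 18 in the shTFE3 pair and was not called (log2 fold change -0.52, SE 0.29, edgeR adjusted p 0.211).

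The genes whose pattern over the 4 libraries was most like that of ITGB8 were DPY19L2, LINC02274 and LINC01320. Likeness was the root mean square difference in centred log2 CPM, which was 0.054 for DPY19L2, 0.061 for LINC02274 and 0.062 for LINC01320 over the 10913 genes that averaged 100 counts or more. DPY19L2, for example, had 14.9 and 17.9 CPM in shControl and 11.6 and 9.05 CPM in shTFE3, so it had the same order of the 4 libraries as ITGB8. With 4 libraries such likeness is a description and points to nothing shared.

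**Figure D2:**
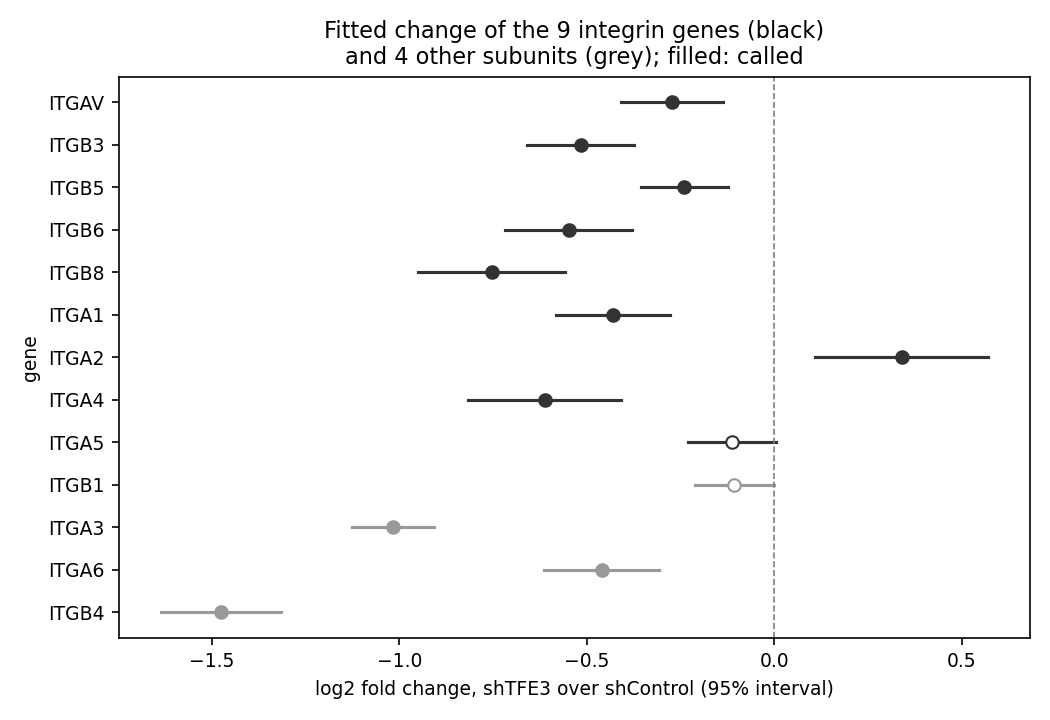
Log2 fold change of shTFE3 over shControl from the edgeR fit over all tested genes, with its 95% interval, for the 9 integrin genes (black) and for ITGB1, ITGA3, ITGA6 and ITGB4 (grey), with filled points for called genes. Values run from -1.48 for ITGB4 to 0.34 for ITGA2, and ITGA5 and ITGB1 sit nearest to 0, at -0.11 each.

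The collagen receptors went opposite ways. ITGA1 (ENSG00000213949, chromosome 5, 52787896 to 52959210, plus strand), which with ITGB1 binds mainly basement membrane collagen IV, had 51.5 and 50.9 CPM in shControl and 38.7 and 37.3 CPM in shTFE3. The replicates of each arm were within 3.72% of each other, and the nearest libraries of the arms were 23.9% of the control mean apart. Its mean was 74.2% of control, 51.2 ± 0.41 against 38.0 ± 1.0 CPM (SD, n = 2), with a log2 fold change of -0.43 (SE 0.074, 95% interval -0.58 to -0.28). Leaving out each library in turn gave -0.46 to -0.41 and kept the call.

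ITGA2 (ENSG00000164171, chromosome 5, 52989326 to 53094779, plus strand), which with ITGB1 binds mainly fibrillar collagen I, starts 30115 bases beyond the end of ITGA1. It was the least abundant of the 9, with 188 and 209 counts in the shControl pair against 261 and 266 in the shTFE3 pair. This was 11.0 and 12.3 CPM in the controls against 14.5 and 15.0 CPM in the shTFE3 libraries, which were both above both controls. Its mean was 127% of control, 11.6 ± 0.88 against 14.7 ± 0.30 CPM (SD, n = 2), and its log2 fold change was 0.34 (SE 0.11, 95% interval 0.11 to 0.57). This call was the least stable of the 8: it was lost without shControl replicate 1 (0.26), without shTFE3 replicate 1 (0.36), without shTFE3 replicate 2 (0.32) and with DESeq2 (0.34), although the value stayed positive in all 11 alternatives.

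The count ratio of ITGA2 to ITGA1, which no scaling between libraries can move, was 0.214 and 0.241 in the controls against 0.376 and 0.401 in the shTFE3 libraries. The ratio was therefore higher in both knockdown libraries, with no overlap of the arms. ITGA1 shares 475 exon bases with PELO, a ribosome rescue factor gene on the same strand. PELO had 820 and 810 counts in the shControl pair against 933 and 976 in the shTFE3 pair, or 0.16 on the log2 scale (SE 0.072; adjusted p 0.114 by edgeR), so it was not called, and its value lay on the other side of 0 from that of ITGA1. How reads in shared exon bases were assigned is not given in the sources used here.

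Of the fibronectin receptor subunits, ITGA4 (ENSG00000115232, chromosome 2, 181457202 to 181536187, plus strand), which with ITGB1 also binds the vascular adhesion molecule VCAM1, had 23.5 and 21.5 CPM in shControl and 15.0 and 14.5 CPM in shTFE3. The arms were 29.2% of the control mean apart at their nearest, a wider gap than the 8.73% between the 2 controls. Its mean was 65.4% of control, 22.5 ± 1.39 against 14.7 ± 0.33 CPM (SD, n = 2), with a log2 fold change of -0.61 (SE 0.099, 95% interval -0.82 to -0.41). With each library left out it stayed called, from -0.68 to -0.55.

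ITGA5 (ENSG00000161638, chromosome 12, 54395261 to 54419460, minus strand), the alpha subunit of the classical fibronectin receptor, had 206 and 196 CPM in shControl and 183 and 189 CPM in shTFE3. Both shTFE3 libraries were below both controls, but by 3.55% of the control mean at the nearest, less than the 5.30% between the controls. Its mean was 92.4% of control, 201 ± 7.53 against 186 ± 3.92 CPM (SD, n = 2), and its log2 fold change of -0.11 (SE 0.057) had a 95% interval of -0.23 to 0.0034. It was not called in any of the 11 alternatives. The count ratio of ITGA4 to ITGA5 was 0.114 and 0.110 in the controls against 0.0818 and 0.0769 in the shTFE3 libraries.

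**Figure D3:**
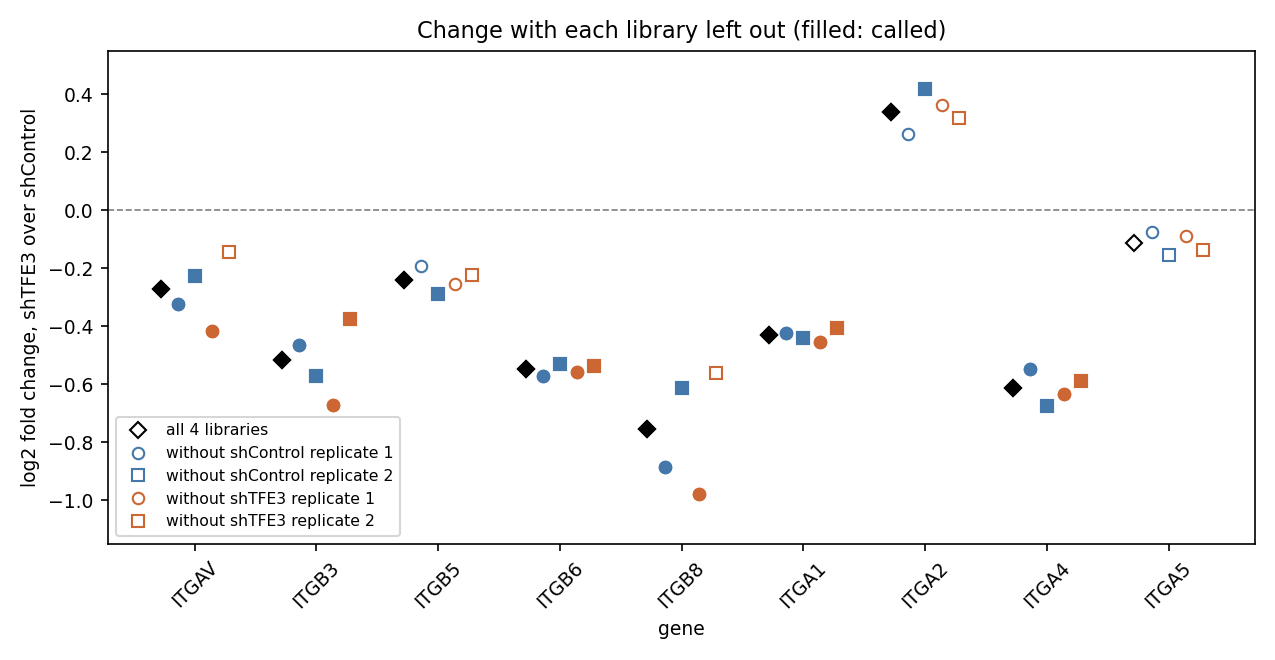
Log2 fold change of the 9 integrin genes with all 4 libraries (black diamonds) and with 1 library left out in turn (blue where a shControl library and orange where a shTFE3 library was left out), with filled points for called genes. ITGAV moves between -0.42 and -0.14 and ITGB8 between -0.98 and -0.56, while ITGB6 and ITGA1 hardly move, and ITGA2 keeps a positive value but, of its 4 points with a library left out, a filled one only without shControl replicate 2.

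ITGB1 (ENSG00000150093), the beta partner of ITGA1, ITGA2, ITGA4 and ITGA5, had 1645 and 1710 CPM in shControl and 1571 and 1544 CPM in shTFE3. Its arms did not overlap, but it was not called, at -0.11 on the log2 scale (SE 0.051, 95% interval -0.21 to -0.0011, edgeR adjusted p 0.14). Of the 17 other integrin subunits 10 could be tested, 3 were called lower and none higher, where 23.3% of all tested genes were called in either direction and 12.9% lower. The 3 were the laminin-binding subunits ITGB4 (log2 fold change -1.48, SE 0.078), ITGA3 (-1.02, SE 0.053) and ITGA6 (-0.46, SE 0.074). ITGB4, for example, had 61.0 and 62.6 CPM in shControl and 22.2 CPM in both shTFE3 libraries. The falls of ITGB4 and ITGA3 were larger than that of any of the 9 genes. ITGA7, ITGA2B, ITGAE, ITGAM and ITGB2, at 13.3 CPM or less on average in shTFE3, were not called. The other collagen-binding alpha subunits were near the detection limit, ITGA10 at 3, 3, 4 and 5 counts and ITGA11 at 6, 2, 12 and 5 counts in shControl 1 and 2 and shTFE3 1 and 2. ITGA9, another alpha subunit that binds matrix, had 4, 4, 2 and 1 counts and ITGA8 had 0 throughout.

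Levels of different genes were compared as CPM per kilobase of exon length (GENCODE release 29, all exons of a gene merged). In shControl ITGB3 (114 ± 5.96) and ITGAV (107 ± 5.16; SD, n = 2) led and did not differ beyond their spread, followed by ITGB5 (40.0 ± 1.90) and ITGA5 (26.5 ± 0.99). ITGB6 (7.57 ± 0.16) and ITGB8 (6.80 ± 0.90) came next and did not differ beyond their spread. ITGA4 (2.85 ± 0.18) and ITGA1 (2.76 ± 0.022) were also alike within their spread, and ITGA2 (1.47 ± 0.11) was lowest. In shTFE3 ITGAV (88.8 ± 12.0) and ITGB3 (79.6 ± 11.5) again overlapped at the top, and ITGA1 (2.05 ± 0.054), ITGA4 (1.87 ± 0.042) and ITGA2 (1.86 ± 0.038) lay together at the bottom. ITGB1, the common partner of the collagen and fibronectin receptors, was higher than all 9, at 279 ± 7.65 in shControl. With the length of the longest transcript instead, ITGB8 (11.8) ranked above ITGB6 (7.59) in shControl. ITGA4 (5.38 ± 0.33) then lay above ITGA1 (4.76 ± 0.038) in shControl. In shTFE3 ITGA2 (1.87 ± 0.038) then lay well below ITGA1 (3.53 ± 0.093) and ITGA4 (3.52 ± 0.079). The order and closeness of these genes thus depend on which exons are counted. Of the 4394 merged exon bases of ITGB3, 2266 are shared with ENSG00000259753, which had 0 counts. If reads in them were counted for neither gene, the level of ITGB3 per kilobase is too low here.

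Shares were taken among ITGB3, ITGB5, ITGB6 and ITGB8 only, on the same scale per kilobase. ITGB1 was not counted, so these are not shares of all possible partners of ITGAV. Among the 4, ITGB3 made up 68.3% and 67.1% in shControl and 66.6% and 63.0% in shTFE3. These shares of ITGB3 are too low if reads in its shared exon bases were not counted. ITGB5 made up 23.9% and 23.6% in the controls against 26.0% and 29.5% in the knockdown, so its share was higher in both shTFE3 libraries. The share of ITGB8 was 3.56% and 4.55% against 3.50% and 3.04%. The share of ITGB6 was 4.31% and 4.70% against 3.95% and 4.52%, and its arms overlapped. For ITGB3, ITGB5 and ITGB8 the arms did not overlap, but for each of these the nearest libraries of the arms were closer than the replicates of at least 1 arm. Of the summed level of ITGA1 and ITGA2, ITGA2 made up 33.4% and 36.1% in shControl and 46.8% and 48.5% in shTFE3. With the length of the longest transcript, ITGA2 made up 22.6% and 24.8% in shControl and 33.9% and 35.4% in shTFE3. The ITGA2 share was higher in both shTFE3 libraries with either length, but its size depends on the length used.

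The matrix ligands were listed separately from the receptors. The lists were written with earlier results of these data known, and every call in them comes from the same libraries as those of the integrin genes. The list of 29 ligands of alpha-v and alpha-5 integrins included VCAM1, a ligand of ITGA4. Of the 29, 22 were tested, 13 fell, 2 rose and 7 were not called, beside 12.9% of all tested genes called lower and 10.3% called higher. Their median log2 fold change was -0.36, against 0.0015 over all tested genes. The 4 with the smallest p were TNC, tenascin-C (-0.62, SE 0.054, edgeR adjusted p 4.11e-09), L1CAM, an adhesion molecule with RGD (-0.62, SE 0.057, 1.24e-08), NPNT, nephronectin of the kidney basement membrane (-1.20, SE 0.12, 7.5e-08), and COL18A1, the source of endostatin (-0.60, SE 0.063, 8.16e-08). Other ligands are named after their values were seen. Osteopontin (SPP1, -0.35), thrombospondin (THBS1, -0.39) and CCN1 (-0.38) fell, while CCN2 (0.37) and VCAM1 (0.21) rose. VCAM1, the cell surface ligand of ITGA4, had 387 and 428 CPM in shControl and 481 and 458 CPM in shTFE3, so ligand and receptor subunit went opposite ways. Fewer of the ligands were called higher without shTFE3 replicate 2, shTFE3 replicate 1 or shControl replicate 1, which also held over all genes.

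Fibronectin itself (FN1), the ligand of ITGA5 and ITGA4, had 13637 and 13297 CPM in shControl and 14280 and 12585 CPM in shTFE3. Its shTFE3 libraries lay on either side of the controls, and its value of -0.0037 on the log2 scale (SE 0.056; adjusted p 0.975 by edgeR) was not called. Vitronectin (VTN), the ligand of the ITGB3 and ITGB5 receptors, had 1, 0, 0 and 3 counts in shControl 1 and 2 and shTFE3 1 and 2. The VTN transcript was thus almost absent from these cells, while the fibronectin transcript was abundant. Ligand protein was not measured here, and the medium contained serum, so these counts do not show which ligands the receptors met.

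Of 18 collagen genes and other collagen receptors 13 were tested, 5 fell (COL4A1, COL4A2, COL4A5, COL5A2 and DDR1), none rose and 8 were not called (median log2 fold change -0.37), while 12.9% of all tested genes were called lower and 23.3% in either direction. The collagen IV chains that form the basement membrane network, ligands of ITGA1, fell to 61.1% of control for COL4A2 (-0.71, SE 0.052, edgeR adjusted p 2.23e-10) and 65.4% for COL4A1 (-0.61, SE 0.053, 4.04e-09). COL5A2, a chain of fibrillar collagen V, had -0.57 (SE 0.058, 5.49e-08) and DDR1, a collagen receptor tyrosine kinase, had -0.37 (SE 0.062, 7e-05). COL5A1, another chain of collagen V, had 0 and 1 counts in the shControl pair and 0 in both shTFE3 libraries. COL1A1, the main chain of collagen I, had 141 and 143 counts in the shControl pair against 112 and 118 in the shTFE3 pair and was not called (-0.37, SE 0.14, edgeR adjusted p 0.0554).

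Of 22 genes of latent TGF-beta activation and TGF-beta signalling 21 were tested, 4 rose (LTBP1, SMAD3, SKI and SKIL), 2 fell and 15 were not called (median 0.031). The 6 called of 21 stand beside 23.3% of all tested genes, so the list is near the background. SKI, a repressor of SMAD transcription factors, rose (log2 fold change 0.60, SE 0.064, edgeR adjusted p 1.21e-07), as did SMAD3 (0.30, SE 0.057, 0.000282). LTBP1, which tethers latent TGF-beta to the matrix, rose from 2.70 and 2.76 CPM to 7.62 and 4.89 CPM (1.20, SE 0.21, edgeR adjusted p 0.000117). The ligand TGFB1 was not called, at 44.9 and 43.8 CPM in shControl and 43.1 and 40.2 CPM in shTFE3. The rise of SMAD3 was not called without shTFE3 replicate 2.

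Integrins are switched on by talin and kindlin, which bind the beta subunit tail. Of 19 activators and inactivators, all tested, 3 fell, 1 rose and 15 were not called (median -0.036), so that 4 of 19 were called beside 23.3% of all tested genes, a share near the background. KANK1 (-0.33, SE 0.063, edgeR adjusted p 0.000399), a talin-binding protein, ITGB1BP1 (-0.29, SE 0.064, 0.00139), a binder of the ITGB1 tail, and TLN2 (-0.24, SE 0.064, 0.00654), a talin paralog, fell. ITGB3BP, named for binding ITGB3 and also a centromere protein, rose (0.32, SE 0.098, edgeR adjusted p 0.0204). Among these calls, ITGB3BP was lost with DESeq2 and with any library left out, TLN2 without shControl replicate 1, shTFE3 replicate 1 or shTFE3 replicate 2, and ITGB1BP1 without either shTFE3 library. The main talin TLN1 (0.056) and kindlin-2, FERMT2 (-0.021), were not called.

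**Figure D4:**
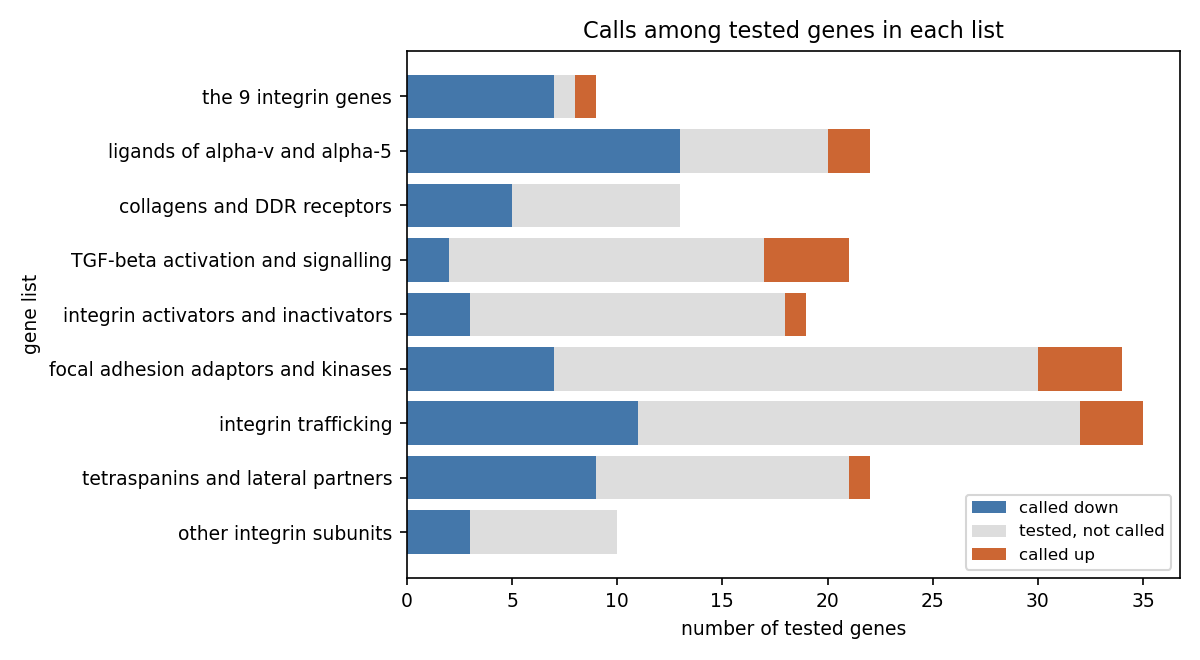
Number of tested genes called lower (blue), not called (grey) and called higher (orange) in shTFE3 for the 9 integrin genes and for 8 gene lists, on an axis from 0. Called genes number 15 of 22 tested for the ligands, 4 of 19 for the activators and 11 of 34 for the focal adhesion genes, beside 23.3% over all tested genes.

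Of 37 focal adhesion adaptors and kinases 34 were tested, 7 fell, 4 rose and 23 were not called (median 0.0017), beside 12.9% of all tested genes called lower and 10.3% called higher. The focal adhesion kinase PTK2 fell (-0.26, SE 0.054, edgeR adjusted p 0.000666), whereas its relative PTK2B rose from 86.5 and 83.1 CPM to 125 and 121 CPM (0.54, SE 0.061, 3.53e-07). PARVA, parvin of the ILK complex, fell (-0.32, SE 0.060, 0.000276), and so did ARHGEF6, a Rac exchange factor (-0.71, SE 0.12, 6.71e-05). Without shTFE3 replicate 2, as without shTFE3 replicate 1, fewer genes of the list were called in either direction, which also held over all genes.

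Of 36 genes of integrin endocytosis, recycling and lysosomal sorting 35 were tested, 11 fell, 3 rose and 21 were not called (median -0.073), where 12.9% of all tested genes were called lower and 10.3% higher. VPS26C, a retriever subunit that returns integrins to the surface, fell (-0.60, SE 0.069, edgeR adjusted p 3.95e-07), as did DAB2 (-0.53, SE 0.061, 4.07e-07), a clathrin adaptor for integrins, WASHC5 (-0.50, SE 0.060, 6.66e-07), a subunit of the endosomal WASH complex, and RAB27B (-0.62, SE 0.085, 4.76e-06), a secretory GTPase. Of 23 tetraspanins and other lateral partners 22 were tested, 9 fell, 1 rose and 12 were not called (median -0.054), against the same background of 12.9% lower and 10.3% higher. CD63, the lysosomal tetraspanin (-0.34, SE 0.052, 2.64e-05), CD9 (-0.63, SE 0.11, 8.7e-05) and TSPAN4 (-0.34, SE 0.060, 0.000148) fell, and CD82 (0.42, SE 0.066, 3.55e-05) rose, by edgeR adjusted p. Without shTFE3 replicate 2, as without shTFE3 replicate 1, fewer genes of both lists were called lower, which also held over all genes. RAB27B and CD9 were not called without shTFE3 replicate 2.

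The authors' deposited table of changed genes holds 546 genes, the smallest absolute log2 fold change in it is 0.585 and the largest adjusted p is 0.0498. It contains 2 of the 9 integrin genes. In the authors' deposited table ITGB8 has a log2 fold change of -0.75 (SE 0.249, adjusted p 0.0189) and ITGA4 one of -0.61 (SE 0.151, adjusted p 0.000696). The authors' standard errors for both are larger than those of the edgeR fit given above, 0.095 for ITGB8 and 0.099 for ITGA4. The edgeR values concern the same log2 fold change and were derived from the quasi-likelihood test statistic. That fit had 2 residual and a median of 22.4 prior degrees of freedom. DESeq2 run on the same counts gave 0.244 for ITGB8 and 0.161 for ITGA4. For ITGAV it gave 0.144 against 0.066 by edgeR, and for ITGB3 0.156 against 0.069. The DESeq2 errors were larger for all 9, so the edgeR intervals given above should not be read as the replicate spread. Without shTFE3 replicate 1, ITGB8 at -0.98 lay outside its edgeR interval of -0.95 to -0.56. The 7 integrin genes absent from the authors' table had absolute log2 fold changes from 0.11 to 0.55 in the edgeR fit, all below 0.585.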

How the data were processed

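Polyadenylated RNA of 4 Caki-1 libraries was sequenced as paired 150-base reads, per the labels' protocols. The authors deposited raw read counts per Ensembl gene, and the submitters' processing notes name hg38 and, without versions, Trim Galore, STAR, featureCounts and DESeq2. Which annotation, strand setting and multi-mapping rule were used is not given in the sources used here, so overlapping and antisense genes are uncertain. The authors' deposited table of changed genes holds their mean normalized signal, log2 fold changes, a test score with standard errors, and p-values before and after adjustment.

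A gene name table gave symbols for 61415 of 61533 identifiers, GENCODE release 29 for 105 more, and 13 stayed without. Counts were tested with edgeR 4.0.16 in R 4.3.3 (TMM factors, filterByExpr, arm as the only term, quasi-likelihood test, Benjamini-Hochberg adjustment over all 15950 tested genes, threshold 0.05), after the procedure was tested on simulated data. The 9 genes and the lists were chosen with earlier results of these data known. Named genes were TFE3, the 9 genes, ITGB1, other integrin subunits averaging 10 counts or more and, in each list, up to 4 called genes with the smallest p that averaged 50 counts or more. Other genes were named after their values were seen. Some genes of the lists are not reported here. Each library was counted as a replicate. Replicate counts spread above sampling noise (chi-square per degree of freedom 2.11 in shControl and 3.61 in shTFE3), which does not show that the replicates were separate infections. Exon lengths and coordinates are those of GENCODE release 29, which may differ from the authors' annotation: 114 of the 546 gene lengths in their table are the same. Motifs were matched in Python 3.11.15. Alternatives were RLE and upper-quartile normalization, DESeq2 1.42.0, limma-voom (limma 3.58.1), other count filters, a replicate term, each library left out, and the longest transcript length. Chromatin immunoprecipitation, which the series mentions, was not analysed here.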

Additional observations from a re-analysis of the deposited data

How the results depend on the processing

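TFE3 and ITGB6 kept their calls under all 11 alternatives, and all 9 integrin genes kept their direction. Of the 9, 7 fell and 1 rose with RLE or upper-quartile normalization, limma-voom and a filter of at least 50 counts in 2 libraries. The count that rose was 0 with DESeq2 and with no filter on low counts. With no filter 1 fell, ITGB6 (adjusted p 0.044, range over its alternatives 1.8e-07 to 0.044), and 15 of 31 other named calls were lost. That fit tested 31954 genes and its prior degrees of freedom were 2.09 in place of 22.4. Leaving out each library in turn gave 0 to 1 that rose and 4 to 7 that fell. Without shControl replicate 1, shTFE3 replicate 1 or shTFE3 replicate 2, 0 rose, and without shTFE3 replicate 2, 4 fell (ITGB3, ITGB6, ITGA1 and ITGA4). Over all genes, too, fewer were called in these fits, as given below. The cause was not tested. The left-out arm then has 1 library, which is assumed to vary like the others.

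With 1 library left out, values of other subunits with few counts changed sign, in a range from -0.15 to 0.19 for ITGA7, -0.067 to 0.24 for ITGAE, -0.75 to 0.39 for ITGAM and -0.26 to 0.88 for ITGB2. The sign differed from that with all libraries for ITGA7 at -0.15 without shControl replicate 2 and -0.12 without shTFE3 replicate 1, ITGAE at -0.067 without shTFE3 replicate 2, ITGAM at 0.39 without shControl replicate 1 and ITGB2 at -0.26 without shControl replicate 2. None of these was called. Over all genes DESeq2 called 744 higher and 1203 lower against 1650 and 2059 with edgeR, no filter gave 104 and 280, and leaving out shTFE3 replicate 2 gave 367 and 676, shTFE3 replicate 1 gave 593 and 927, shControl replicate 1 gave 1007 and 1507, and shControl replicate 2 gave 1008 and 1494.

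The replicate numbers name the libraries and are not said to pair them, and deviations of same-numbered libraries had a correlation of -0.029 over genes. With a replicate block 7 of the integrin genes fell and 1 rose, as without it, no other named call was lost, TFE3 had a log2 fold change of -0.92, and 1568 and 1990 genes were called over all.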
